A study of Glycine max with 6 samples.

Results

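GASA genes encode the gibberellin-regulated peptides of soybean, and their transcripts were read in leaves sprayed with a Nod factor or with water. The family was taken as every soybean probe set of the array, one with an identifier starting Gma, whose every paired gene carries a GASA name followed by a number in the platform annotation or in the RefSeq symbols and synonyms. That rule found 20 probe sets of 16 genes, out of 37593 soybean probe sets and 61170 probe sets in all; 6029 genes have a soybean probe set of their own in the annotation. The RefSeq table of assembly Glycine_max_v4.0 lists 33 GASA genes, and the other 17 were not analysed here. In that table GASA29, which is measured, directly neighbours GASA28, which is not.

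GASA stands for gibberellic acid-stimulated in Arabidopsis. The proteins are small and usually secreted, with a signal peptide at the start and a domain rich in conserved cysteines at the end. Members described in several plants respond to gibberellin and other hormones and act in cell elongation, flowering and the redox state of the cell wall, and the snakins of potato, which belong to the family, are antimicrobial. Soybean GASA numbers are not those of Arabidopsis, so the role of an Arabidopsis gene with the same number is not carried over.

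The plants were soybean (Glycine max), cultivar OAC Bayfield, grown singly in pots. At the V1 stage the first trifoliolate leaf received 2 mL of spray and was harvested 48 h later. The treated leaves received 1e-07 M LCO, a lipo-chitooligosaccharide of the Nod factor class by which rhizobia signal to legume roots, in 0.02% Tween 20; the structure of the LCO is not given in the sources used here. The control leaves received water with the same 0.02% Tween 20, so the detergent and the spraying are shared by both groups. There were 3 Affymetrix arrays per group, each of total RNA from ground whole leaf, and nothing in the labels says whether an array stands for a single plant or a pool, so the p-values cover no more than the variation among these 6 samples, and that variation may be technical. In whole leaf, fewer cells of a type and less RNA per cell cannot be told apart.

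Values are log2 RMA values, so a difference of 1 is a 2-fold difference, and levels of different probe sets are not compared with each other. Array medians ran from 3.42 to 3.47. Photosynthesis genes that mark leaf were bright and even, with a summed level on the log2 scale from 16.35 to 16.42 over the 6 arrays, and none of their 11 tested probe sets passed the limma test (1 had an unadjusted p under 0.05). Each array lay nearest to an array of its own group, at unequal distances. Water 1 and water 2 were the closest pair, with an SD of 0.198 for their difference over the tested probe sets, while water 3 was at 0.459 and 0.45 from them and at 0.487 from LCO 2. Water 3 carries many of the GASA values that follow, so the results are given with and without it.

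A probe set was tested where its mean over the 6 arrays lay above a log2 value of 3.31, the percentile 90 of the array's probe sets for other organisms. Of the 20 GASA probe sets 16 passed this filter, covering 13 genes, and all 16 had both group means above it, the lowest being 3.87. The filtered set is not the whole family. The 4 left out were the single probe sets of GASA12, GASA21 and GASA33 and 1 of the 2 probe sets of GASA32. Their values ran from 2.01 to 3.37, and 3 of the 4 were under 3.31 on every array; the exception was GASA32 in water 3. No fold change is given for these.

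With all 6 arrays, 1 of the 16 probe sets rose with LCO, that of GASA32, and none fell (limma with Benjamini-Hochberg adjustment over all 29286 tested probe sets, threshold 0.05). Over all tested probe sets 3.55% passed, 1.67% higher and 1.88% lower, so a single call among 16 is not set apart from the array as a whole. At an unadjusted p under 0.05 there were 7 higher and 1 lower GASA probe sets, where 25.8% of all tested probe sets reached that p in either direction. Of the estimates, 13 of 16 lay above 0, as did 49% of all tested probe sets, and 8 of 16 differed by at least 1 on the log2 scale, against 4.68% of all. The median estimate over the 16 was 0.88, and that over all tested probe sets -0.01. These counts describe the set and carry no test, since probe sets on the same arrays are not replicates.

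**Figure D1:**
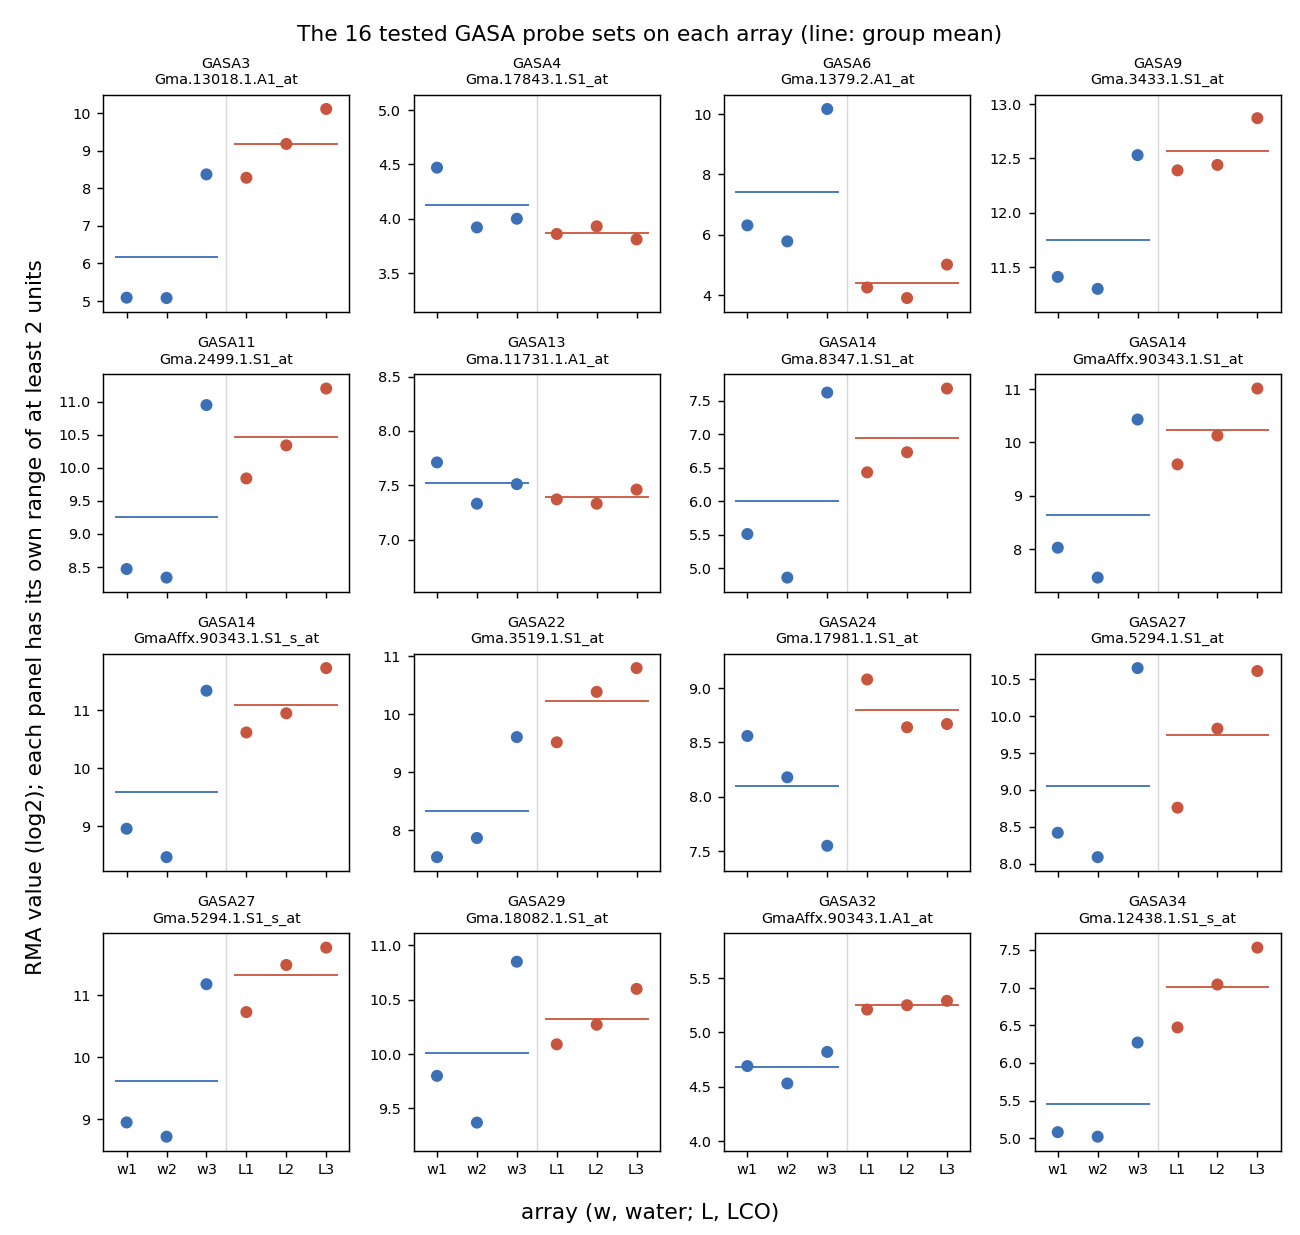
Log2 RMA value of each tested GASA probe set (vertical axis, its own range in each panel) on the 3 water arrays (blue) and the 3 LCO arrays (red); points are arrays and lines are group means. In GASA32, GASA34 and GASA24 every LCO point lies above every water point, in GASA6 every LCO point lies below, and in many other panels water 3 lies among the LCO arrays.

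GASA32 had the smallest SD of the 16 in both groups. Its tested probe set, GmaAffx.90343.1.A1_at, read 4.69, 4.53 and 4.82 on water 1, 2 and 3 and 5.21, 5.25 and 5.29 on LCO 1, 2 and 3. All LCO arrays were above all water arrays, and water 3 stayed with its group. The means were 4.68 ± 0.15 and 5.25 ± 0.04 (SD, n = 3), a rise of 0.57 (SE 0.11, 95% interval 0.31 to 0.83, limma adjusted p = 0.0451) or 1.48-fold. The call is close to the threshold. It held in 1 of the 6 fits that left out an array, the fit without water 3 (adjusted p = 0.0332). It was lost without water 1 (adjusted p = 0.18), water 2 (0.176), LCO 1 (0.0785), LCO 2 (0.108) and LCO 3 (0.12), with estimates from 0.49 to 0.64 over the 6 fits. The other GASA32 probe set, GmaAffx.64740.1.S1_at, read 2.32, 2.52 and 3.37 in water and 2.65, 2.94 and 2.81 with LCO, within the background range, and gives no second reading of the gene. The tested one shares its design number with the GASA14 probe sets GmaAffx.90343.1.S1_at and GmaAffx.90343.1.S1_s_at; in the manufacturer's names A and S stand for opposite orientations of a target. How far its signal is that of GASA32 alone was not tested.

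In the same arrays, the 3′ probe set of the P450 control gene exceeded its 5′ probe set, a measure related to RNA quality, by 0.98 ± 0.03 on the water arrays and by 2.27 ± 0.60 on the LCO arrays (log2, SD, n = 3). It separates the groups as GASA32 does. The difference did not separate the groups in other controls, the GlutTrans difference being 0.39 ± 0.35 and 0.60 ± 0.27 and that of actin 1.48 ± 0.13 and 1.31 ± 0.05. Sieve element genes, which mark phloem, had a summed level from 7.88 to 8.00 in water and from 8.41 to 9.04 with LCO. This was over 11 probe sets, of which 4 were too dim to test. None of the 7 tested passed the limma test with all arrays, and 5 had an unadjusted p under 0.05 (25.8% of all tested probe sets did). In 5 the groups did not overlap, against 31.5% of all, and 1 rose without water 3, against 3.98%. The part of either in the GASA32 result was not tested.

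Most of the larger GASA estimates had a different shape, with water 3 set far from the other water arrays. GASA3 read 5.09, 5.08 and 8.37 on water 1, 2 and 3 and 8.28, 9.18 and 10.11 on LCO 1, 2 and 3. Water 1 and 2 were alike and low, and water 3 lay just above LCO 1. The estimate was 3.01 (SE 0.95, 95% interval 0.72 to 5.29, adjusted p = 0.122) with all arrays. Without water 3 the GASA3 estimate was 4.10 (SE 0.50, limma adjusted p = 0.0169), which is 17.2-fold. It was 2.46 without water 1 (adjusted p = 0.337) and 2.45 without water 2 (adjusted p = 0.326). Calls without water 3, here and in the genes below, come from leaving out the array that widened the water spread. No GASA probe set passed without water 1 or without water 2.

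GASA22 read 7.54, 7.87 and 9.61 in water and 9.52, 10.39 and 10.80 with LCO. Its water 3 value also lay just above LCO 1, so the groups overlapped. The estimate was 1.89 (SE 0.59, adjusted p = 0.117), and without water 3 it rose by 2.53 (SE 0.38, adjusted p = 0.0259). GASA34 read 5.08, 5.02 and 6.27 in water and 6.47, 7.04 and 7.53 with LCO. Here water 3 was again the high water array, but it stayed under every LCO array. The estimate for GASA34 was 1.56 (SE 0.41, 95% interval 0.59 to 2.53, adjusted p = 0.0862), and it rose by 1.96 (adjusted p = 0.0271) without water 3.

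GASA11 read 8.47, 8.34 and 10.95 in water and 9.84, 10.34 and 11.20 with LCO. Water 3 exceeded LCO 1 and LCO 2, and the 95% interval of the estimate, 1.21 (SE 0.74, adjusted p = 0.344), ran from -0.56 to 2.98 and held 0. GASA9 read 11.41, 11.30 and 12.53 in water and 12.39, 12.44 and 12.87 with LCO. Water 3 was above LCO 1 and LCO 2 in this gene too, on a smaller scale, with an estimate of 0.82 (SE 0.34, adjusted p = 0.192). Without water 3 the rises were 2.06 for GASA11 (SE 0.38, adjusted p = 0.0382) and 1.21 for GASA9 (SE 0.17, adjusted p = 0.0247).

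GASA14 has 3 tested probe sets, and all showed this shape. GmaAffx.90343.1.S1_s_at read 8.96, 8.47 and 11.34 in water and 10.62, 10.95 and 11.73 with LCO. GmaAffx.90343.1.S1_at read 8.03, 7.47 and 10.43 in water and 9.59, 10.13 and 11.01 with LCO. In both, water 3 lay above LCO 1 and LCO 2 and below LCO 3. The third, Gma.8347.1.S1_at, read 5.51, 4.86 and 7.62 in water and 6.43, 6.73 and 7.68 with LCO, with water 3 nearly level with LCO 3. Estimates with all arrays were 1.51 (SE 0.74), 1.60 (SE 0.79) and 0.95 (SE 0.72), none past the threshold (adjusted p from 0.252 to 0.442). Without water 3 the first pair of probe sets rose, by 2.38 (adjusted p = 0.0253) and 2.49 (adjusted p = 0.0326), and the third had an estimate of 1.76 (adjusted p = 0.057).

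GASA27 has a pair of probe sets that share a design number. Gma.5294.1.S1_s_at read 8.95, 8.72 and 11.18 in water and 10.73, 11.49 and 11.77 with LCO. Gma.5294.1.S1_at read 8.42, 8.09 and 10.65 in water and 8.76, 9.83 and 10.61 with LCO. LCO 1 was close to water 1 in the latter but not in the former, and water 3 was high in both. The estimates were 1.72 (SE 0.67, adjusted p = 0.172) and 0.68 (SE 0.76, adjusted p = 0.606), and without water 3 the first rose by 2.50 (adjusted p = 0.0181) while the second was at 1.48 (adjusted p = 0.128).

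Whether probe sets of 1 gene differ in their LCO effect was tested on the difference between them on each array, over the 4 pairs that GASA14 and GASA27 allow. The GASA27 pair differed by -1.03, and Gma.8347.1.S1_at of GASA14 differed by -0.65 and -0.56 from the other probe sets of its gene. In these 3 pairs the exact permutation p, two-sided, was 0.1, the smallest that 3 against 3 arrays allow, and 0.133 adjusted over the 4 pairs. The 2 probe sets of GASA14 with a common design number differed by 0.09 (exact permutation p = 0.5). Names ending in _s_at mark probe sets that the manufacturer expected to match more than 1 transcript, so GASA14, GASA27, GASA33 and GASA34 may be read together with similar genes.

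GASA6 was the member with the largest lower estimate. It read 6.31, 5.78 and 10.17 in water and 4.25, 3.90 and 5.01 with LCO. All LCO arrays were below all water arrays, yet water 3 stood far above both other water arrays, on the side away from LCO. The estimate was -3.03 (SE 1.12, 95% interval -5.71 to -0.36, adjusted p = 0.158). Without water 3 the spread of the water arrays was smaller, the size of the difference dropped to -1.66 (SE 0.35, adjusted p = 0.0487), and GASA6 fell. That call is close to the threshold.

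GASA24 was the 1 of the 16 in which water 3 lay more than 0.5 below water 1 and 2. It read 8.56, 8.18 and 7.55 in water and 9.08, 8.64 and 8.67 with LCO. The groups did not overlap, though LCO 2 was only just above water 1. The estimate was 0.70 (SE 0.27, adjusted p = 0.171), and 0.42 without water 3 (adjusted p = 0.209). GASA29 read 9.80, 9.37 and 10.85 in water and 10.09, 10.27 and 10.60 with LCO. Its highest array was water 3, and the estimate of 0.31 (SE 0.37, adjusted p = 0.63) was -0.01 without water 2 and 0.73 without water 3 (adjusted p = 0.0836).

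GASA13 and GASA4 had the estimates nearest 0 among the 16. GASA13 read 7.71, 7.33 and 7.51 in water and 7.37, 7.33 and 7.46 with LCO, and GASA4 read 4.47, 3.92 and 4.00 against 3.86, 3.93 and 3.81. In both, water 1 was the highest array and the groups overlapped. The estimates were -0.13 (95% interval -0.42 to 0.16, adjusted p = 0.532) and -0.26 (95% interval -0.65 to 0.12, adjusted p = 0.348), so differences of 2-fold lie outside both intervals.

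**Figure D2:**
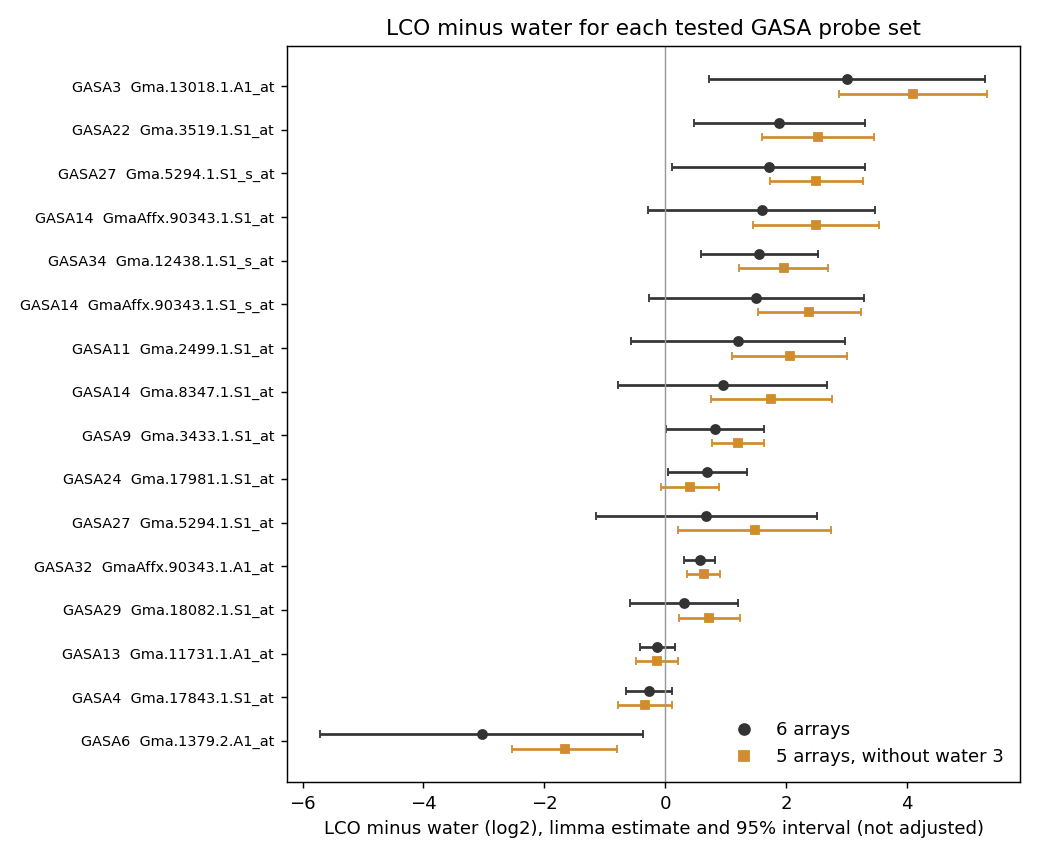
LCO minus water (horizontal axis, log2) for each tested GASA probe set, as the limma estimate with its unadjusted 95% interval, from 6 arrays (black circles) and from the 5 arrays without water 3 (orange squares). Without water 3 the estimates of 14 of the 16 lie further from 0, for GASA13 only marginally, and most intervals are narrower; GASA6 and GASA24 come closer to 0.

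A wide spread among the water arrays was the feature that most of these probe sets shared. The SD over the 3 water arrays was at least 1 in 9 of the 16 probe sets, against 0.96% of all tested probe sets. These were of GASA3, GASA6, GASA11, GASA14, GASA22 and GASA27, out of 13 tested genes, and GASA14 and GASA27 each gave more than 1. The median SD in water was 1.24 over the 16 and 0.14 over all tested, and among the LCO arrays it was 0.55 and 0.18. No GASA probe set reached an SD of 1 there, where 0.806% of all did, so that count does not set the 16 apart. The largest SDs among the LCO arrays were 0.93 (GASA27, Gma.5294.1.S1_at) and 0.91 (GASA3). Water 1 and 2 differed by a median of 0.35 in the GASA probe sets and 0.10 in all. Water 3 was more than 1 from the mean of water 1 and 2 in 12 of 16, against 3.65%, and nearer to the LCO mean than to the mean of water 1 and 2 in 12 of 16, against 50.2%. It was above both in 13 of 16, against 43%. Among the LCO arrays LCO 3 was highest in 14 of 16, against 37.7%. These measures were chosen after the values had been seen and are descriptions.

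**Figure D3:**
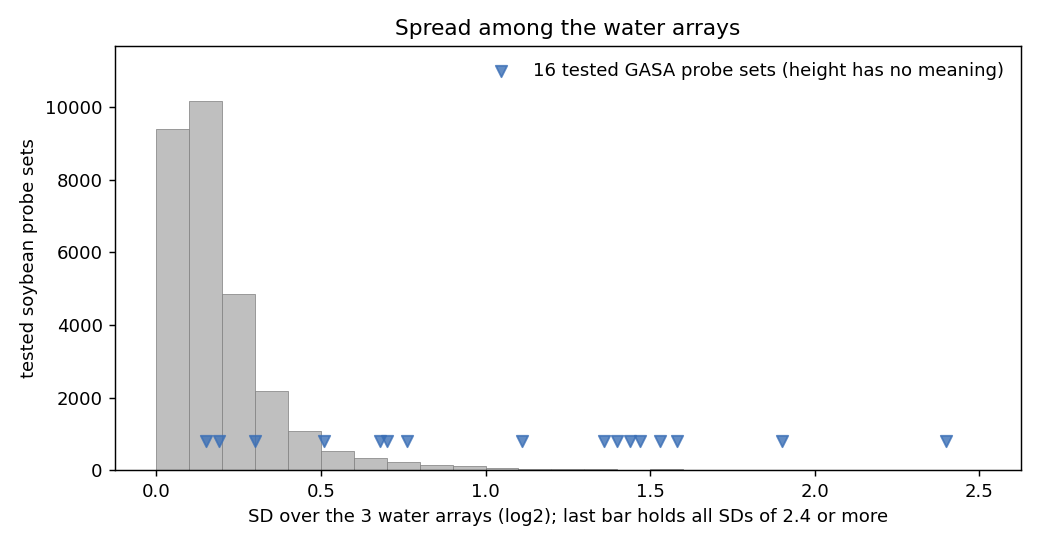
Histogram of the SD over the 3 water arrays (horizontal axis, log2) for the 29286 tested soybean probe sets (vertical axis, number of probe sets), with the 16 GASA probe sets marked as triangles whose height has no meaning. The bulk of the array lies under 0.5, while 9 of the 16 triangles lie at 1 or above.

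The count of GASA calls depended on which array was left out, and only the fit without water 3 gave any. Without water 3, 9 of 16 probe sets rose, of 8 genes, and 1 fell, against 3.98% higher and 3.55% lower over all tested probe sets. Without water 1 none of the 16 passed in limma (3 higher and 1 lower at an unadjusted p under 0.05, which 15.3% of all tested probe sets reached), and without water 2 none passed either (2 higher and 1 lower, where 16% of all reached it). In those fits 0.348% and 0.318% of all tested probe sets rose and 0.331% and 0.341% fell. Estimates kept their direction in these 3 fits for 15 of the 16, the exception being GASA29 without water 2. No GASA probe set passed without LCO 1, LCO 2 or LCO 3 either. In those fits 1.95%, 1.42% and 0.994% of all tested probe sets passed in either direction. The groups did not overlap in 4 of 16 with all arrays, 3 higher and 1 lower, where 31.5% of all tested probe sets did not overlap, 15.3% higher and 16.3% lower. The labels give no reason to prefer 1 set of water arrays. The P450 difference of water 3 was 0.95, just under the 0.97 and 1.01 of the other water arrays, while its GlutTrans difference of 0.79 was above their 0.15 and 0.21 and within the LCO range from 0.30 to 0.84. Its summed phloem level was 8.00, near the 7.88 of both other water arrays. The part of RNA quality in the water 3 values was not tested.

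Gibberellin synthesis, breakdown and signalling genes were listed, but those that could be tested were of breakdown and signalling only. The only synthesis gene that the list matched by symbol was too dim to test, and the rest of the synthesis route was not read. The list of such genes found 9 probe sets of 5 genes, of which 6 were tested: none rose or fell, also without water 3, and none had an unadjusted p under 0.05 (limma). Their estimates ran from -0.14 to 0.26 with a median of -0.06. Among the DELLA repressors, which hold back gibberellin responses, a GAI1 probe set read 7.98, 7.91 and 7.90 in water and 7.98, 7.64 and 7.85 with LCO, an estimate of -0.10 (adjusted p = 0.611). The other GAI1 probe set had 0.21 (adjusted p = 0.559). A probe set of GA2OX8, an oxidase that inactivates gibberellins, read 4.07, 4.12 and 4.67 in water and 4.30, 4.81 and 4.53 with LCO, an estimate of 0.26 (adjusted p = 0.468). None of these 3, the ones with the smallest p, separated the groups. The other 3 probe sets, of a synthesis enzyme and a further inactivating oxidase, were too dim to be tested. Transcript levels do not give the level of the hormone.

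Expansin and xyloglucan endotransglycosylase genes, which loosen and rebuild the cell wall during growth, were listed beside the GASA genes. None of their 7 tested probe sets passed with all arrays, with estimates from -0.27 to 2.09. At an unadjusted p under 0.05 in limma there were 2, where 25.8% of all tested probe sets reached that p. Without water 3, 2 rose, against 3.98% of all tested probe sets. The highest estimate was that of XTH1, singled out after its values were seen, which read 6.32, 6.23 and 8.49 in water and 8.50, 9.25 and 9.55 with LCO. Its water 3 value was close to LCO 1, as in GASA3 and GASA22. The list of other cysteine-rich peptide genes (snakins, defensins and lipid transfer proteins) matched no probe set by symbol.

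The probe sets most like GASA32 were sought by Pearson r over the 6 arrays among 1298 tested probe sets with 1 gene and a symbol other than a LOC number. The 6 arrays form 2 groups, so r holds the group difference and is given as a description. The nearest was ALDH3J2, an aldehyde dehydrogenase, with r = 0.997. It read 5.66, 5.51 and 5.76 in water and 6.10, 6.14 and 6.24 with LCO. The next was SS, the nodulin-100 sucrose synthase, which cleaves sucrose, with r = 0.987; it read 6.67, 6.51 and 6.66 in water and 7.11, 7.19 and 7.22 with LCO, and rose by 0.56 (SE 0.10, adjusted p = 0.0368). HEMB, an enzyme of the tetrapyrrole route to chlorophyll, had r = 0.981, ACCB-1, the biotin carrier of plastid acetyl-CoA carboxylase, had 0.973, and CYP13 also had 0.973. All 5 had water 2 as the lowest array and every LCO array above every water array. GASA32 has that pattern too, so choosing them by r to it favours the pattern, which is no separate result. Over all tested probe sets, 15.3% had every LCO array above every water array. Of the 5, only SS passed the test, where 1.67% of all tested probe sets passed as higher.

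**Figure D4:**
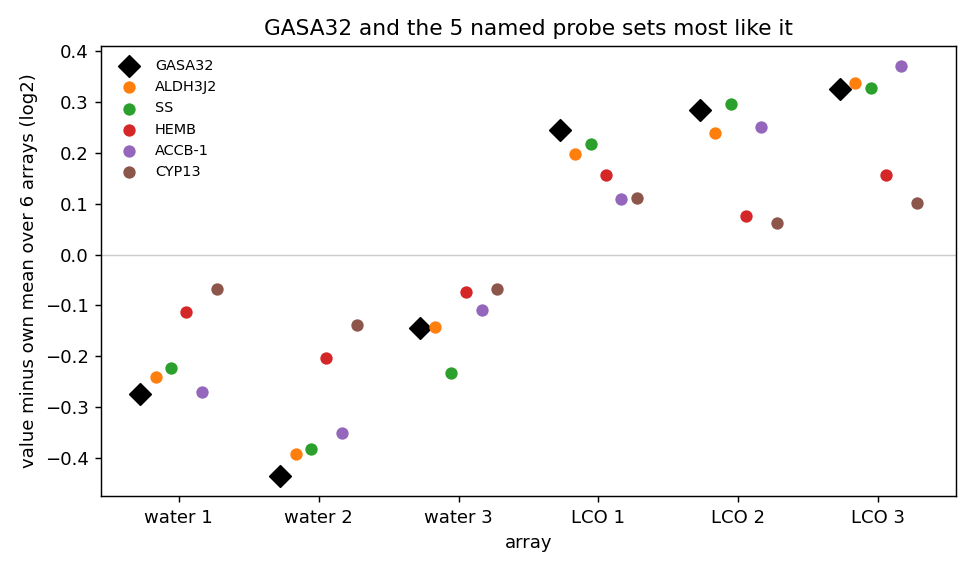
Values of GASA32 (black diamonds) and of the 5 named probe sets most like it (coloured circles) on each array, as the difference from each probe set's own mean over the 6 arrays (vertical axis, log2). All 6 lie below 0 on the water arrays and above 0 on the LCO arrays, with water 2 lowest.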

How the data were processed

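Soybean leaf RNA was read on 6 Affymetrix arrays. The deposited log2 values, 1 per probe set and array, are the authors' RMA output (per the submitters' processing notes), with no version in those notes. That the scale is log2 was read from the values, which run from 1.45 to 14.59. RMA puts all arrays on 1 distribution, so differences are relative to the rest of the array. The number of arrays limits the precision. Groups came from the titles.

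Soybean probe sets with a mean above 3.31 entered a limma 3.58.1 fit under R 4.3.3 (group as the only term, default eBayes prior, 29286 probe sets) and adjusted by Benjamini-Hochberg over all of them. The fit was tested on simulated data. Gene names came from the platform annotation and RefSeq; no coordinates are given, since the array's build is not stated. Every GASA probe set is named. Other genes are named where they are in the gibberellin list and past the threshold or, with none, the 3 with the smallest p, and the 5 most like GASA32; XTH1 was named outside this rule, after its values were seen. The members and lists were chosen with earlier results of these data known. The labels give a completely randomised design, so the numbers were not taken to pair the arrays. Same-numbered arrays correlated in their deviations from the group means at 0.45, -0.04 and 0.53 for numbers 1, 2 and 3. Arrays with different numbers ran from -0.54 to 0.45, so these correlations do not decide whether the arrays are paired. Alternatives covered filter, normalization, prior, array weights, replicate block, averaging and leaving out each array. Figures used matplotlib 3.10.9 in Python 3.11.15.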

Additional observations from a re-analysis of the deposited data

How the results depend on the processing

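Over the 16 tested GASA probe sets and 15 alternatives, 239 of 240 estimates kept their direction; the exception was GASA29 without water 2, at -0.01, in a range up to 0.73 over the arrays left out. The count of GASA probe sets that rose was 1 as reported and also 1 with no filter, a stricter filter, both other normalizations and 1 mean per gene. In these fits 1.32% to 1.69% of all tested probe sets rose. It was 0 with a trended and robust prior (where GASA32 had an adjusted p = 0.0596) and 0 with water 1 and 2 averaged (adjusted p = 0.169), with 7 and 3 higher at an unadjusted p under 0.05 in limma, which 26% and 15.9% of all tested probe sets reached in either direction. With array weights, which gave water 3 and LCO 1 a weight of 0.36 each, 10 of the 16 rose and 1 fell. Of all tested probe sets 17.1% rose and 15.5% fell in that fit, 9544 in place of 1040. There 1 of the 6 gibberellin probe sets passed, against 32.6% of all in either direction. With the replicate block 4 GASA probe sets rose and none fell, where 5.17% of all tested probe sets rose and 5.1% fell, 3010 in all. Not every array correlated best with its own number, and the arrays share only a number. The count over all tested probe sets was 203 (0.693%) with water 1 and 2 averaged. With an array left out, between 0 and 9 GASA probe sets rose and 0 to 1 fell. Of all tested probe sets 0.318% to 3.98% rose and 0.331% to 3.55% fell in those fits, and 193 to 2207 passed. The differences between probe sets of 1 gene kept their sign with each array left out, an alternative added after seeing the data, and ran from -1.25 to -0.85 for GASA27. The causes were not tested. GASA32 rests on 1 tested probe set, and the 4 dim probe sets give no fold change.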
